A study of Homo sapiens with 17 samples.

Results

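The 37 genes described here encode regulators of pre-mRNA splicing, read from RNA-seq counts per gene in 2 established human lines of diffuse large B cell lymphoma, Karpas-422 and WSU-DLCL2. They are a fixed list of SR proteins, TRA2 proteins, CLK kinases, other proteins rich in arginine and serine (RS-rich cofactors), and heterogeneous nuclear ribonucleoproteins (hnRNPs), matched by Ensembl identifier among 63677 genes. They were listed by name, with earlier results of these data known, so the list was not blind to the data. Of the 37, 36 could be tested; the identifier listed for SRSF8 stood at 0 in all 15 libraries and gave no value. The groups hold 3 libraries each: untreated Karpas-422, Karpas-422 kept with A-485 for 48 h, untreated WSU-DLCL2, WSU-DLCL2 exposed to A-485 for the same time, and WSU-DLCL2 clones 1 to 3, which carry the label BCL11A knockout. A-485 is an inhibitor of the acetyltransferase site of p300 and CBP, and BCL11A is a zinc-finger regulator of transcription in B cells. No genotype beyond these labels, and no vehicle for the untreated cells, is given in the sample labels. Untreated here means a line without the knockout label whose title names no A-485, and such cells may have received a vehicle. Each knockout library is by its label a separate clone, so the spread in that group includes differences between clones. For the other groups no label says whether replicates came from separate cultures, so the spread that the p-values rest on may be technical.

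SR proteins bind exonic enhancer sequences and recruit the spliceosome through their arginine-serine domains, and TRA2 proteins act alongside them. CLK kinases phosphorylate those domains and so release SR proteins from nuclear speckles. Many hnRNPs bind silencer sequences and oppose SR proteins, and many genes of both families limit their own mRNA through exons or introns that lead to decay or keep the transcript in the nucleus. Such genes have many annotated transcripts: the 36 tested members had a median of 15 in GENCODE 29. Their changes are therefore set beside those of other genes with as many transcripts.

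The libraries were of 2 kinds. The 9 libraries of Karpas-422 and of WSU-DLCL2 with A-485 held 6689320 to 8897051 counts in genes, and the 6 of untreated WSU-DLCL2 and the clones held 21233752 to 37286727. Of all reads, 43.0% to 55.5% had no unique alignment in the first kind and 7.73% to 9.24% in the second. Within Karpas-422 that share was 54.5% to 55.5% untreated and 48.8% to 49.0% with A-485, with no overlap. Its part in the changes between those groups was not tested. A-485 in WSU-DLCL2 and the kind of library cannot be told apart, so that group is given by its values alone. Untreated replicate 3 of WSU-DLCL2, which joins 3 sequencing runs, is untreated by its title but has an A-485 entry in its treatment label, and it stood apart from untreated replicates 1 and 2; the comparisons that rest on it are also given with that library left out. B cell markers were present in every group (summed level 1541 to 6831 CPM, counts scaled to the library total). In Karpas-422 the T and NK cell list was also above 0, at 634 to 674 CPM untreated and 528 to 563 CPM with A-485, but only 2 of its 7 matched genes reached 1 CPM in every library and CD2, CD7 and GNLY were at 0. Of the 5 fibroblast markers, 4 were at 0 in Karpas-422, and the summed level was 381 to 428 CPM untreated and 177 to 193 CPM with A-485. The 5 epithelial markers were at 0 there, and the myeloid list summed to 2.01 to 8.47 CPM; the part of these genes in the results was not tested.

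The first comparison asks how counts of the splicing regulator genes stood in Karpas-422 after A-485. Among genes with over 6 transcripts, levels in libraries of this kind moved with the share of exonic sequence that belongs to a single transcript, as given below. The values are therefore changes in counts, and the part of that share in them was not tested. All 4 CLK kinase genes rose, with a median log2 fold change of 2.18, while 5 of 6 hnRNP genes of the A, C and D type fell (median -0.49) and the SR protein genes split into 5 up and 5 down. Of the 36 members, 19 rose and 15 fell by edgeR's quasi-likelihood test (Benjamini-Hochberg adjusted over all genes), and TRA2A and HNRNPK were not called. Over all 11846 genes tested, 37.6% rose and 33.7% fell, 71.4% in either direction, so a change was the usual outcome for any gene here. The groups of 3 libraries did not overlap for 33 members, against 74.7% of all genes. The members' median log2 fold change was 0.33 against 0.08 over all genes. A rise of at least 2-fold was called for 13 members, against 22.7% of all genes, and a fall of at least 2-fold for 3 (SRSF1, HNRNPA0 and HNRNPF), against 11.8%. With library totals alone as scaling, the median over all genes moved to 0.49, 23 members rose and 6 fell, and 73.8% of all calls were rises in place of 52.7%. That scaling ended the calls of SRSF4, SRSF9, SON, SRRM2, HNRNPA2B1, HNRNPA3 and HNRNPM, and SRSF6, TRA2A, HNRNPA1 and HNRNPK were then called up.

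**Figure D1:**
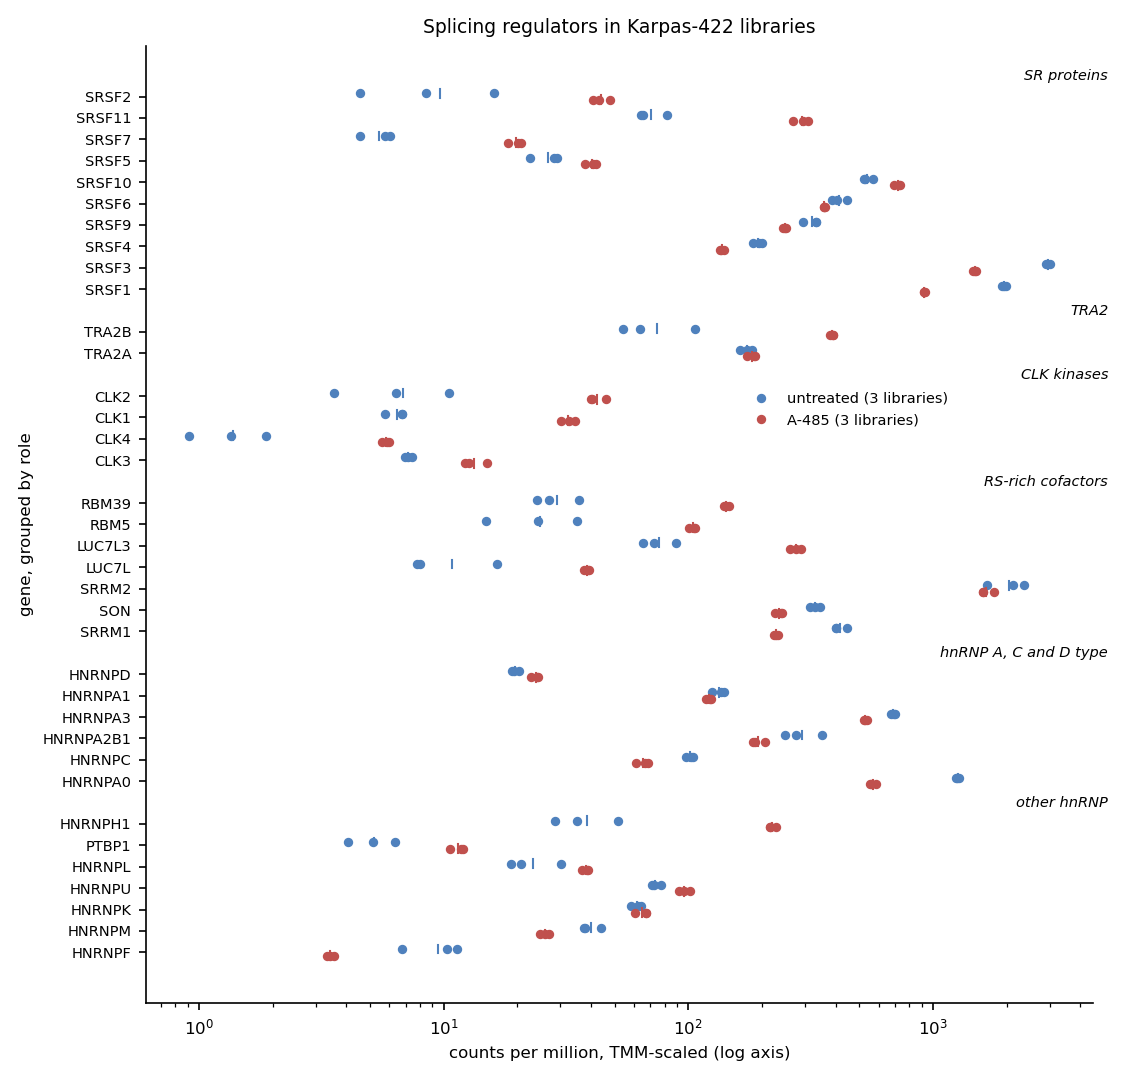
TMM-scaled CPM (log axis) of the 36 tested members in each of the 3 untreated (blue) and 3 A-485 (red) Karpas-422 libraries, ordered within each role by fold change, with the group mean as a short line. All 4 CLK kinases lie to the right with A-485, as do TRA2B, RBM39 and HNRNPH1, whereas SRSF1, SRSF3 and HNRNPA0 lie to the left.

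Promoter sequence is shown for 2 members that rose, CLK1 and TRA2B, and 2 that fell, SRSF3 and HNRNPA0, so that the start regions of genes that moved in opposite directions can be read side by side. Each is the 250 bases before the annotated start, 5′ to 3′ on the gene's strand, from RefSeq on GRCh38.p14: CLK1 at chr2:200864659-200864908 (minus strand, the first of its annotated starts), TRA2B at chr3:185938015-185938264 (minus), SRSF3 at chr6:36594112-36594361 (plus) and HNRNPA0 at chr5:137754364-137754613 (minus). Capitals mark 4 motifs, searched on both strands, and in the sequences printed each capital run is a single motif, with no overlap. The first is CCAAT. The second, the GC box, is GGGCGG. The third, the TATA box, has the letters TATAAA. The last is the E-box, CACGTG.
CLK1: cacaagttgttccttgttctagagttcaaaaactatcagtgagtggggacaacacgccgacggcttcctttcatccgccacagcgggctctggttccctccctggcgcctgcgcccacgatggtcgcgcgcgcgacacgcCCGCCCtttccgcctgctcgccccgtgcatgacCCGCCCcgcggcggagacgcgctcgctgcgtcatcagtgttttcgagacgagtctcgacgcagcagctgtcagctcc
TRA2B: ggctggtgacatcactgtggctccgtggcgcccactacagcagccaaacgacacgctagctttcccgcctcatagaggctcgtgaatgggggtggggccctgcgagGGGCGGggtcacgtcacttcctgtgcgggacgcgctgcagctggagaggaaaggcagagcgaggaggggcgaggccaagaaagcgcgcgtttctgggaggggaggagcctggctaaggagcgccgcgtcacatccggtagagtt
SRSF3: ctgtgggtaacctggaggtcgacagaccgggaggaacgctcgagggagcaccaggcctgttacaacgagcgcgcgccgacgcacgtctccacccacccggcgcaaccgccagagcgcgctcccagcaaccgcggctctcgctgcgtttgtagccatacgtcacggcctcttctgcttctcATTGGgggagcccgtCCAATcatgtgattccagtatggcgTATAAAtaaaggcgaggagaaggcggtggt
HNRNPA0: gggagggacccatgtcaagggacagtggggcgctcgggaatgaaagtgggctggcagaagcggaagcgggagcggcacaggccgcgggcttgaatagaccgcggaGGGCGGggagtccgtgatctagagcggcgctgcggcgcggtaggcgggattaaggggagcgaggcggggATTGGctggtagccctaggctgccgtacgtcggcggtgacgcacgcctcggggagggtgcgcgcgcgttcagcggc
SRSF3 had CCAAT boxes in both orientations close to a TATA box. CLK1 had a pair of GC boxes and TRA2B a single one, with none of the other motifs. HNRNPA0 had a GC box and a CCAAT box. The tables hold 47 start entries for 33 members. A CCAAT box was in 19 of the 47 (40.4%), against 32.0% of all 35116 entries of the same length and 34.5% of entries of tested genes, in 7 of 26 entries of members that rose and in 9 of 17 of those that fell. A GC box was in 25 of the 47 (53.2%), against 42.6% of all entries and 63.2% of entries of tested genes, in 16 of the 26 of members that rose and in 8 of the 17 of those that fell. A TATA box and an E-box were each in 5 of the 47 (10.6%), against 10.7% and 6.3% of all entries and 5.5% and 8.5% of entries of tested genes. The 47 include entries of SRSF8, which was not tested. No share was taken over entries of all genes that rose or of all that fell, so no difference by direction is read from these counts. These matches describe letters in a window, and no binding was measured.

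The CLK kinases were the only role in which every tested member was called in the same direction. Other SR protein kinases did not share this: of 4 tested, 1 was called up and 3 were not called. CLK2 stood at 10.5, 6.38 and 3.55 CPM in untreated replicates 1 to 3 and at 46.0, 40.2 and 40.6 CPM with A-485, a log2 fold change of 2.59 ± 0.24 (± SE; adjusted p = 4.4e-06 by edgeR). CLK1 stood at 6.74, 5.77 and 6.77 CPM untreated and at 30.05, 34.3 and 32.5 CPM with A-485, a 5.02-fold rise (adjusted p = 1.8e-09 by edgeR). For both genes the treated libraries lay close together and far above every untreated one. CLK4, the closest relative of CLK1, went from 1.89, 0.911 and 1.35 CPM to 6.01, 5.60 and 5.88 CPM, a 4.12-fold rise on few counts: 28 in the 3 untreated libraries together and 169 in the treated ones. For CLK3 the rise was 1.85-fold; its mean and SD over 3 libraries were 7.16 ± 0.239 CPM untreated and 13.3 ± 1.52 CPM with A-485.

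The 10 tested SR protein genes divided evenly. SRSF2, a speckle component that binds exonic enhancers, stood at 16.0, 8.50 and 4.57 CPM untreated and at 43.2, 47.9 and 41.0 CPM with A-485, a log2 fold change of 2.14 ± 0.32. Its untreated libraries were spread widely, its treated ones were not, and the groups did not overlap. Without untreated replicate 1 the log2 fold change was 2.73. SRSF11 rose 4.11-fold, from 70.5 ± 10.05 to 291 ± 21.03 CPM, and SRSF7 rose 3.57-fold, from 5.47 ± 0.793 to 19.7 ± 1.21 CPM. SRSF5 (1.51-fold) and SRSF10 (1.33-fold), an SR protein that represses splicing when dephosphorylated, also rose. The other SR protein genes fell. SRSF1, the founding SR protein and an oncogene in several tumours, stood at 1906, 1980 and 1958 CPM untreated and at 918, 928 and 918 CPM with A-485, a log2 fold change of -1.08 ± 0.05 (adjusted p = 1.2e-10 by edgeR). SRSF3, which also couples splicing to mRNA export, fell 1.99-fold, from 2947 ± 59.1 to 1479 ± 15.2 CPM. SRSF4 (1.41-fold), SRSF9 (1.29-fold) and SRSF6 (1.15-fold) fell by less. With library totals alone as scaling, SRSF6 and SRSF9 changed sign (log2 0.21 and 0.04). In the annotation, 60.7% of SRSF1's exonic bases, 46.2% of SRSF9's (with GATC) and 36.7% of SRSF2's (with MFSD11) lie in exons of another gene too, and strand is not stated, so reads of those genes cannot be told apart.

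The TRA2 paralogs parted. TRA2B, which promotes inclusion of exons with GAA-rich enhancers, stood at 106, 63.3 and 54.3 CPM untreated and at 379, 391 and 389 CPM with A-485, a log2 fold change of 2.35 ± 0.24 (adjusted p = 0.00034 by edgeR). TRA2A, with a similar protein, stood at 174, 163 and 183 CPM untreated and at 187, 174 and 185 CPM with A-485 (log2 0.07 ± 0.06, adjusted p = 0.29 by edgeR), and its groups overlapped. The difference between the paralogs' changes was not itself tested.

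Of the 7 RS-rich cofactors, 4 rose and 3 fell. RBM39, a cofactor of U2AF that is degraded by aryl sulfonamide drugs, stood at 35.9, 27.0 and 24.0 CPM untreated and at 142, 146 and 139.9 CPM with A-485, a 4.88-fold rise (adjusted p = 9.0e-10 by edgeR). RBM5, a regulator of apoptotic splice choices, went from 35.0, 24.3 and 14.9 CPM to 101, 106 and 106 CPM, a 4.14-fold rise. The U1 snRNP partners LUC7L and LUC7L3 moved alike. LUC7L rose 3.49-fold, from 10.8 ± 5.004 to 38.6 ± 0.830 CPM, and LUC7L3 rose 3.63-fold, from 75.6 ± 12.3 to 275 ± 15.1 CPM. The large speckle scaffolds fell: SRRM1 1.83-fold, SON 1.40-fold and SRRM2 1.24-fold. SRRM2 stood at 1661, 2126 and 2357 CPM untreated and at 1768, 1594 and 1602 CPM with A-485, so its groups overlapped although it was called (adjusted p = 0.045 by edgeR). Its call was lost when either A-485 replicate 2 (adjusted p = 0.093) or 3 (0.092) or untreated replicate 2 (0.15) or 3 (0.060) was left out, in the same edgeR test, and with library totals alone as scaling its sign changed (log2 0.11).

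The hnRNP genes of the A, C and D type mostly fell. HNRNPA0, which has 1 annotated transcript, stood at 1246, 1257 and 1281 CPM untreated and at 583, 555 and 559.6 CPM with A-485, a 2.23-fold fall (adjusted p = 7.7e-11 by edgeR, the smallest of any member). HNRNPC fell 1.56-fold, HNRNPA3 1.30-fold and HNRNPA2B1 1.51-fold, the last from 275, 248 and 353 CPM to 206, 184 and 188 CPM. HNRNPA1, a repressor that competes with SRSF1 at splice sites, stood at 140.3, 135 and 125 CPM untreated and at 118, 122 and 124 CPM with A-485 (log2 -0.14 ± 0.06, adjusted p = 0.046 by edgeR). That call was kept in 3 of 12 alternative settings; leaving out any single library other than untreated replicate 3 ended it, and scaling by library totals alone reversed it (log2 0.27). The 74 annotated genes named as copies of HNRNPA1 held counts equal to 9.01% of its own in the untreated libraries and 25.8% with A-485, so reads may be split between them. HNRNPA3 changed sign under the same scaling (log2 0.03). HNRNPD, which binds AU-rich mRNA, was the only one of the 6 to rise (1.21-fold, adjusted p = 0.032 by edgeR), a call also kept in 3 of 12 settings and ended by leaving out any single library other than untreated replicate 1.

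Of the 7 other hnRNP genes, 4 rose, 2 fell and HNRNPK was not called. HNRNPH1, which binds G-rich sequence, stood at 51.6, 28.5 and 35.2 CPM untreated and at 216, 216 and 228 CPM with A-485, a 5.67-fold rise (adjusted p = 8.2e-06 by edgeR). HNRNPF, its relative with the same G-rich preference, went from 6.74, 11.4 and 10.3 CPM to 3.34, 3.44 and 3.55 CPM, a 2.72-fold fall. PTBP1, the polypyrimidine tract binding protein, rose 2.18-fold from 5.19 ± 1.14 to 11.5 ± 0.736 CPM. HNRNPL rose 1.62-fold and HNRNPU 1.31-fold, and HNRNPM fell 1.54-fold. HNRNPK stood at 63.9, 62.4 and 58.6 CPM untreated and at 60.4, 67.2 and 67.2 CPM with A-485. Its 5 named copies held counts equal to 31.1% of its own untreated and 16.0% with A-485, and the 2 named copies of HNRNPL 19.5% and 6.24%, the opposite direction to the copies of HNRNPA1.

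Untreated replicate 1 was the highest of the untreated libraries for 16 of the 19 members that rose, and the highest for 4 and the lowest for 7 of the 15 that fell. These counts are given without a share over all genes. Over all genes, replicate 1 differed from replicates 2 and 3 by 5.89 and 6.03 chi-square per gene, against 2.38 between replicates 2 and 3. Untreated replicate 1 had 4.54% of its reads outside annotated genes, against 3.61% in each of untreated replicates 2 and 3 and 8.25% to 8.91% with A-485. Without it, the same test called 19 members up and 14 down. The part of reads outside genes in these changes was not tested.

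Members were next set beside genes with as many annotated transcripts. Of 26 members with over 10 transcripts, 18 rose and 6 fell; of the 3323 tested genes with over 10, 51.4% were called up and 21.1% down, at a median log2 fold change of 0.46. Of 10 members with up to 10 transcripts, CLK2 rose and 9 fell; of the 8175 such genes, 32.0% were called up and 39.1% down, at a median of -0.07. In 7 finer classes the members stood on both sides: 18 of 36 lay above the median of their class, and the median difference from it was -0.05. They were spread more widely than their classes, with 12 above the upper quartile, 10 below the lower and 14 between. The 12 were SRSF2, SRSF7, SRSF11, TRA2B, CLK1, CLK2, CLK4, LUC7L, LUC7L3, RBM5, RBM39 and HNRNPH1, and each lay at least 1 log2 unit above its class median. The 7 at least 1 unit below it were SRSF1, SRSF3, SRRM1, HNRNPA0, HNRNPC, HNRNPF and HNRNPM. CLK2 lay highest, at the 97.6th percentile of genes with 7 to 10 transcripts, and HNRNPF lowest, at the 3.84th percentile of the same class. These counts describe members chosen by name and carry no test.

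**Figure D2:**
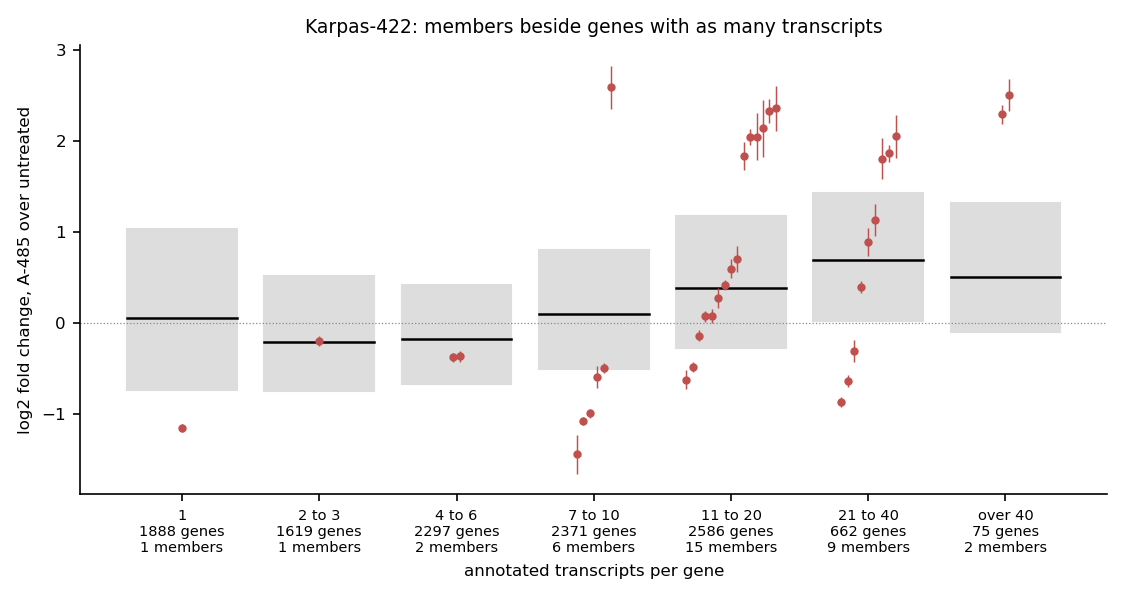
Log2 fold change (A-485 over untreated Karpas-422) of the 36 tested members (red points, bars 1 SE) by number of annotated transcripts, over the median (black line) and the quartiles (grey box) of all tested genes of that class. Class medians rise from -0.21 at 2 to 3 transcripts to 0.69 at 21 to 40, and members lie both above and below the boxes.

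Within classes of up to 40 transcripts, changes also went with the kind of transcript. Some exonic sequence is annotated only in transcripts of the retained-intron type. Among all genes with 11 to 20 transcripts, the median log2 fold change was 0.20 where a gene had none of that sequence. It was 0.13 at up to 10% and 0.77 where that sequence made up over 25%. Among genes with 21 to 40 transcripts the medians at none and over 25% were 0.20 and 1.13. With over 40 transcripts, the class of RBM39 and HNRNPH1, they were 0.73 (5 genes) and 0.59 (36 genes), the other way. Of the 18 members over 25%, 11 rose and 5 fell, near the 56.7% up and 19.7% down of all genes over 25%. Set against genes of the same class of transcript number and of retained-intron sequence, 7 of the 18 lay above the class median, 10 below it and PTBP1 at it. TRA2B, with 68.6% of such sequence, lay 1.58 above, CLK4 (38.3%) 1.27 above and HNRNPH1 (42.1%) 1.92 above. SRRM1 lay at -1.99 from its class median, SRSF3 at -1.45, HNRNPA2B1 at -1.06 and SRSF4 at -0.95. CLK2 and SRSF11, which have none, rose as well. Over members (n = 36 genes, which share libraries and are not independent), Spearman's rho of the log2 fold change was 0.37 with the number of transcripts and 0.41 with the number of retained-intron transcripts, and over 11498 genes 0.18 and 0.19.

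The untreated level divided the members further. Of 22 members under 100 CPM untreated (CPM of the library total, not per gene length), 18 rose and HNRNPC, HNRNPF and HNRNPM fell, with a median of 1.82; of 14 at 100 CPM or more, SRSF10 rose and 12 fell, with a median of -0.43. All tested genes showed the same split: 42.8% rose and 25.6% fell under 100 CPM, and 11.5% rose and 74.6% fell above it. Across members, Spearman's rho between log2 fold change and untreated level was -0.64 (n = 36), a description in which the untreated libraries enter both values.

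**Figure D3:**
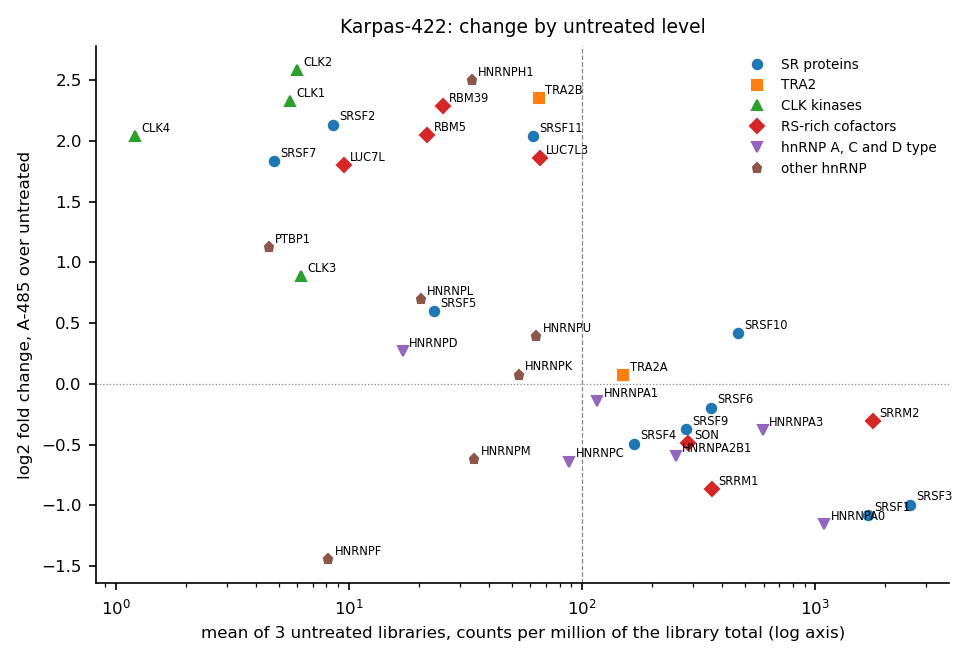
Log2 fold change (A-485 over untreated) against the mean of the 3 untreated Karpas-422 libraries (CPM of the library total, log axis) for the 36 tested members, by role; the dashed line is at 100 CPM. SRSF10 is the one called riser to the right of the line, and HNRNPF has the lowest value on the left.

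Other genes of the splicing machinery, in 8 further lists of 138 genes, gave 49 up and 58 down of 124 tested, beside 37.6% up and 33.7% down over all genes; the lists carry no test, and no direction is read from their counts. Core parts of the spliceosome gave 12 down and 5 up of 18 in the U1, U2 and U2AF list (SF3A3 log2 -1.61, SF3B2 1.18), 6 down and 2 up of 8 Sm proteins (SNRPD1 -1.17, SNRPN 3.07) and 12 down and 4 up of 20 in the tri-snRNP list (PRPF19 -1.49, PRPF8 1.14). The counts were 18 up and 11 down of 33 other RNA-binding regulators (PNISR 2.85, SYNCRIP -1.48) and 7 up and 2 down of 10 RS-domain partners (SREK1 3.21, THRAP3 -0.64). Exon junction and decay factors gave 7 up and 6 down of 16 (PNN 0.65, EIF4A3 -1.29), 3′ end processing 5 up and 9 down of 15 (FIP1L1 1.90, CSTF3 -0.76), and of 4 other SR protein kinases PRPF4B rose (2.22). DYRK1A, the lowest of those kinases, was not called (-0.03).

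In WSU-DLCL2 with A-485 the members can only be listed. Per library total, 22 of the 36 members were lower in every library of the shallow kind, whatever the line, than in every deep library, 5 (SRSF1, SRSF3, SRRM2, HNRNPA0 and HNRNPA3) were higher, and 9 were neither. Without untreated replicate 3 these counts were 23, 6 and 7, with LUC7L3 then among the lower and SRSF6 among the higher. Both sets of counts are given without a share over all genes. The medians of gene classes given below were negative as well, so no trait of the members is read from the counts. HNRNPF stood at 5.75 ± 1.64 CPM in WSU-DLCL2 with A-485, 8.16 ± 1.83 and 3.95 ± 0.114 CPM in Karpas-422 untreated and treated, and 502 ± 84.5 CPM in untreated WSU-DLCL2 (541, 559 and 404 CPM in replicates 1 to 3). HNRNPA0 stood at 1065 ± 57.1 CPM in WSU-DLCL2 with A-485 against 220.4 ± 13.5 CPM in the untreated line (207, 219 and 234 CPM). Across all genes with over 6 transcripts, the log2 ratio of WSU-DLCL2 with A-485 to the untreated line had a median of -4.31 where up to 10% of a gene's exonic sequence belongs to a single transcript and -0.25 where 60% to under 100% does. HNRNPF has 12.85% of such sequence and SRSF2 4.51%. Over the 36 members, Spearman's rho between that log2 ratio and the share was 0.51, a description over genes that share libraries. Not every member followed it: SRSF1 (28.1%) stood at 1.24, HNRNPC (58.5%) at -3.69 and CLK3 (70.1%) at -2.86. In untreated Karpas-422, set against untreated WSU-DLCL2, the same medians were -4.91 and -1.17, so levels in both lines' shallow libraries moved with that share of sequence among genes with over 6 transcripts. Without untreated replicate 3 the medians were -4.21 and -0.23 for WSU-DLCL2 with A-485 and -4.76 and -1.08 for Karpas-422. Genes with 1 transcript, all of whose sequence belongs to it, did not continue that order: their medians over 987 genes were -2.40 and -2.96 (-2.52 and -2.95 over 965 genes without replicate 3). HNRNPA0, which is one of them, was higher by 2.27 in WSU-DLCL2 with A-485. Between the Karpas-422 log2 fold change with A-485 and that share, Spearman's rho was -0.17 over the 36 members and -0.04 over 11498 genes. The part of that share in the Karpas-422 changes was not tested. Per kilobase of exons, SRSF1 was the highest member in untreated Karpas-422 (505 ± 10.3 CPM per kb) with SRSF3 next (359 ± 13.0), and CLK3 and CLK4 were the lowest. This order is of counts over all exonic bases. It is not corrected for the share of single-transcript sequence or for bases shared with other genes (60.7% for SRSF1), so it is not an order of mRNA amounts. In untreated WSU-DLCL2 the mean was highest for HNRNPA2B1 (308 ± 120.4 CPM per kb), with SRSF1 next (203 ± 35.3). That spread came with replicate 3: HNRNPA2B1 stood at 377, 379 and 169 CPM per kb in replicates 1 to 3, and SRSF1 at 182.4, 182.1 and 243. In replicates 1 and 2 HNRNPA2B1 was thus above SRSF1 with no overlap, and HNRNPK (188 and 193) was also above it, whereas in replicate 3 SRSF1 was above both. CLK3 and CLK4 were the lowest there with and without replicate 3.

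The second comparison asks whether the same genes differ in the clones labelled BCL11A knockout. BCL11A itself was not lower in them: clones 1 to 3 had 58.8, 69.6 and 51.9 CPM of the library total, and untreated replicates 1 to 3 had 46.8, 45.7 and 73.5 CPM (log2 0.13 ± 0.21, adjusted p = 0.91 by edgeR). Without untreated replicate 3 every clone was above both untreated libraries, at log2 0.37 ± 0.12, and the difference was not called (adjusted p = 0.18 by edgeR). An edit can leave mRNA in place, so its count does not check the label. Of the 36 members, 0 were called by edgeR, as were 0 of 16152 genes, with 0% called in either direction; at an unadjusted p under 0.05 there were 0 members and 1117 genes. DESeq2 also called 0 members, with 60 genes up and 255 down. The members' median log2 fold change was 0.00, with a range of -0.47 to 0.36, and their median SE was 0.14. The groups did not overlap for 3 members (CLK4, SRRM2 and HNRNPA3), against 16.5% of all genes.

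Without untreated replicate 3, edgeR called 70 genes up (0.422%) and 281 down (1.69%) of 16607, 2.11% in all, and again 0 members; DESeq2 was not run on that subset. The smallest adjusted p of any member was 0.21 there, and 3 members (SRSF4, HNRNPA1 and HNRNPA3) had an unadjusted p under 0.05, against 3150 genes. The groups did not overlap for 7 members, against 40.3% of all genes. For 17 members the sign of the difference changed with that library, and the median SE over the 36 members went from 0.14 to 0.088.

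**Figure D4:**
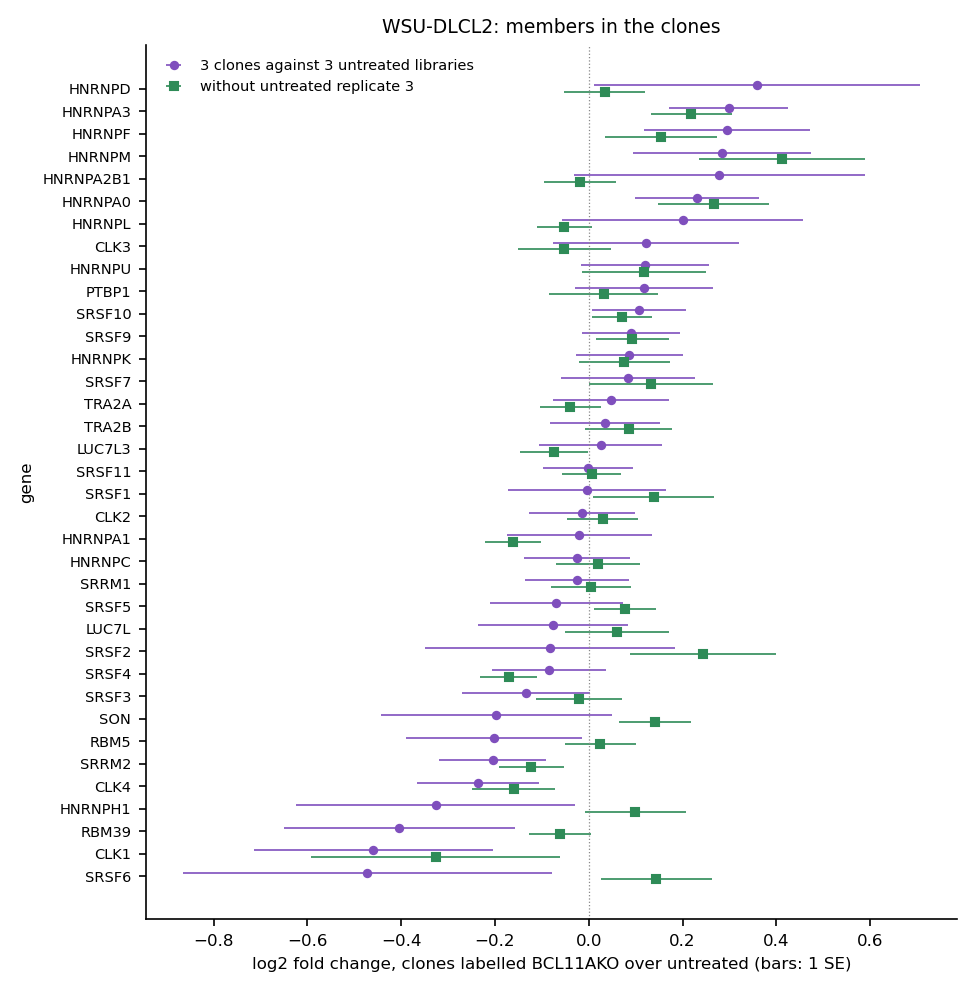
Log2 fold change (clones labelled BCL11AKO over untreated WSU-DLCL2, bars 1 SE) of the 36 tested members with all 3 untreated libraries (circles) and without untreated replicate 3 (squares). No member was called in either fit, and SRSF6 and HNRNPH1 move from below 0 to above it.

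Among the kinases, CLK1 had the lowest value in both fits. It stood at 89.3, 87.4 and 114 CPM in untreated replicates 1 to 3 and at 98.2, 58.2 and 54.7 CPM in clones 1 to 3 (log2 -0.46 ± 0.26, adjusted p = 0.82, and -0.33 ± 0.27 without replicate 3, adjusted p = 0.56, both by edgeR). Clone 1 lay with the untreated libraries and clones 2 and 3 below them. CLK4 was lower in every clone (27.5, 29.1 and 30.3 CPM) than in every untreated library (33.1, 31.8 and 37.5 CPM), with a log2 difference of -0.24 ± 0.13, or -0.16 ± 0.09 without replicate 3, that was not called in either fit. CLK2 and CLK3 gave -0.01 ± 0.11 and 0.12 ± 0.20, and 0.03 ± 0.08 and -0.05 ± 0.10 without replicate 3.

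The TRA2, LUC7L and hnRNP A pairs were not called either. TRA2A gave 0.05 ± 0.12 and TRA2B 0.04 ± 0.12, LUC7L -0.08 ± 0.16 and LUC7L3 0.03 ± 0.13, HNRNPA1 -0.02 ± 0.15 and HNRNPA2B1 0.28 ± 0.31 on the log2 scale. Without replicate 3 the values were -0.04 ± 0.06 for TRA2A and 0.09 ± 0.09 for TRA2B, 0.06 ± 0.11 for LUC7L and -0.07 ± 0.07 for LUC7L3, and -0.16 ± 0.06 for HNRNPA1 and -0.02 ± 0.08 for HNRNPA2B1. HNRNPA1 was then lower in every clone than in both untreated libraries, with an adjusted p of 0.23 by edgeR. HNRNPM had the largest value without replicate 3 (log2 0.41 ± 0.18, adjusted p = 0.28 by edgeR). It stood at 341 and 361 CPM in untreated replicates 1 and 2 and at 497, 359 and 541 CPM in clones 1 to 3, so clone 2 lay with the untreated libraries. HNRNPA3 was higher in each clone (578, 496 and 570.3 CPM) than in each untreated library (474, 469.5 and 394 CPM), with a log2 difference of 0.30 ± 0.13 (adjusted p = 0.73 by edgeR), or 0.22 ± 0.09 without replicate 3 (adjusted p = 0.25); its 16 named copies held counts equal to 40.1% of its own in the clones and 39.0% in the untreated line. SRRM2 was lower in each clone (1013, 965 and 972 CPM) than in each untreated library (1116, 1030 and 1256 CPM), at -0.20 ± 0.12 and adjusted p = 0.82, or -0.12 ± 0.07 and adjusted p = 0.39 without replicate 3, both by edgeR. Of the 133 tested genes of the other splicing lists, 0 were called, and 0 of 134 without replicate 3.

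Untreated replicate 3 set the widest contrasts among these 6 libraries. It lay outside the range of the other 5 for 26 of 36 members (14 above, 12 below), or 72.2%, the same share as over all 16152 genes. It was more than 1.5-fold from their median for 8 members (22.2%), against 47.6% of all genes. SRSF6 stood at 507 CPM in it against 183 to 235 CPM in the other 5, HNRNPH1 at 1465 against 678 to 842, RBM39 at 659 against 336 to 369, SON at 992 against 548 to 645, and SRSF2 at 557 against 297 to 417 CPM. These 5 were higher there. HNRNPA2B1 (1543 against 3277 to 3683 CPM), HNRNPD (229.6 against 543 to 632 CPM) and HNRNPL (145 against 269 to 283 CPM) were lower. In Karpas-422 with A-485, HNRNPH1, RBM39 and SRSF2 were among the members that rose, HNRNPA2B1 was among those that fell, SRSF6 and SON fell while they stood high in this library, and HNRNPD and HNRNPL rose while they stood low in it. Which treatment that library had is not settled by these values. Among the clones, clone 2 lay below the other 5 libraries for 14 members (38.9%, against 12.7% of all genes) and above them for 1 (2.78%, against 15.4%). Clone 3 lay above for 11 (30.6%, against 12.8%) and below for 1 (2.78%, against 13.6%). Leaving out clone 2 changed the sign of the difference for 5 members. These counts carry no test.

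**Figure D5:**
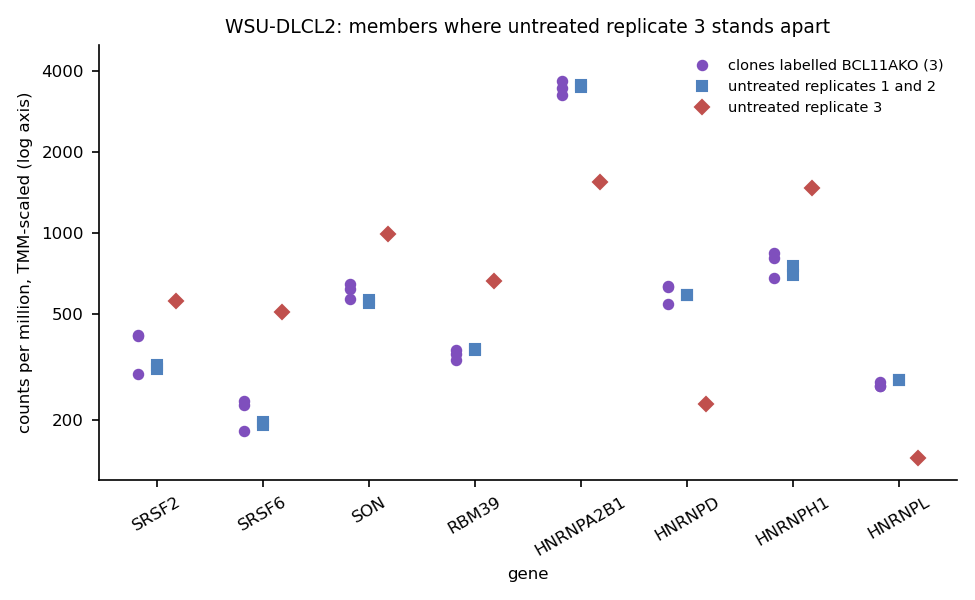
TMM-scaled CPM (log axis) of the 8 members for which untreated replicate 3 (red diamonds) lies more than 1.5-fold from the median of the other 5 WSU-DLCL2 libraries: 3 clones labelled BCL11AKO (purple circles) and untreated replicates 1 and 2 (blue squares). Replicate 3 is above the others for SRSF2, SRSF6, SON, RBM39 and HNRNPH1 and below them for HNRNPA2B1, HNRNPD and HNRNPL.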

How the data were processed

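RNA was sequenced from the lines Karpas-422 and WSU-DLCL2, and the authors deposited raw counts of reads per gene, 1 file for each of 15 libraries among 17 sample records. The submitters' processing notes name GRCh37 (hg19), RSEM and STAR 2.5.3a; for the counter, annotation and strand, nothing is given in the sources used here. The 5 summary lines per file (27.3% to 70.2% of reads) stayed out of library sizes and tests.

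Symbols came from a gene name table and GENCODE 29 (on GRCh38, used for names, transcript numbers and exon lengths only), and 52526 of 63677 identifiers matched. Each comparison was fitted on its own 2 groups over all genes kept by filterByExpr, with edgeR 4.0.16 (TMM scaling, robust quasi-likelihood, two-sided tests, Benjamini-Hochberg threshold 0.05). Each SE is the absolute log2 value over the root of its F statistic. CPM within a comparison are TMM-scaled unless said to be of the library total. The test was run on simulated data first. The members and lists were chosen with earlier results of these data known. The named members were, per comparison, the 8 with the largest absolute log2 fold change, the smallest p in each of 6 roles and the pairs of close relatives; of each other list, the gene with the smallest p on each side. Others are named to account for all members. Alternatives were library totals, RLE factors, DESeq2 1.42.0, limma-voom 3.58.1, no filter, other classes of transcript number, a replicate block and leaving out each library. Replicate pairs differed by at least 1.20 chi-square per gene, and none was counted as 1 sample. That lowest value, for replicates 2 and 3 of Karpas-422 with A-485, is close to counting noise alone, so their spread may be technical. Counts are of reads, so depth limits low members such as CLK4.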

Additional observations from a re-analysis of the deposited data

Results flagged for a closer look

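Reads outside annotated genes, which enter no comparison above, made up 8.69% ± 0.375 of all reads in Karpas-422 with A-485 and 3.92% ± 0.538 untreated (mean ± SD, n = 3); every treated library was above every untreated one. The 74 annotated copies of HNRNPA1 held counts equal to 25.8% of HNRNPA1's own with A-485 (909 against 3525 counts over 3 libraries) and 9.01% untreated (241 against 2674). The copies of HNRNPK and HNRNPL went the other way, from 31.1% untreated to 16.0% and from 19.5% to 6.24%. The reads outside genes and the HNRNPA1 copies were singled out because both stood higher with A-485 than in untreated cells. Reads outside genes enter no comparison, and the counts of the copies are not part of HNRNPA1's own. No group held enough libraries for a search for a single library far from the others of its group, and no difference between groups' effects was tested.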

How the results depend on the processing

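In Karpas-422, 24 of 36 members kept their direction and their side of the threshold in all 12 other fits. With library totals alone, 6 members and 2290 genes fell, the members' median log2 fold change was 0.74, and SRSF6 (0.21), SRSF9 (0.037), SRRM2 (0.11), HNRNPA1 (0.27) and HNRNPA3 (0.029) changed sign. That median was 0.28 with RLE factors and with DESeq2. The members' median difference from genes with as many transcripts was -0.22 with no filter, -0.13 in deciles of transcript number, -0.12 in classes of transcript number and retained-intron sequence together (chosen after seeing the data), and -0.096 to -0.040 when each library was left out. Leaving out each library gave 18 to 19 members up and 13 to 14 down.

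In the knockout comparison, DESeq2 called 60 genes up and 255 down, 1 of them in the other splicing lists, limma-voom called 2 down, and no filter gave 1 up and 19 down; none was a member. Leaving out each library gave 0 to 70 genes up and 0 to 281 down, with calls in edgeR only without untreated replicate 3. Over those fits log2 values crossed 0 for 19 of the 36 members, among them SRSF2 (-0.22 to 0.24), SRSF6 (-0.69 to 0.14), TRA2A (-0.040 to 0.12), TRA2B (-0.0071 to 0.11), LUC7L (-0.16 to 0.060), LUC7L3 (-0.073 to 0.091), SON (-0.33 to 0.14), HNRNPA1 (-0.16 to 0.065), HNRNPA2B1 (-0.019 to 0.46) and HNRNPH1 (-0.50 to 0.10). Levels per kilobase and the comparison of kinds of library without untreated replicate 3 were added after seeing the data. The cause was not tested. 

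Same-numbered libraries did not all deviate together: the correlations of deviations were -0.05 to 0.07 in Karpas-422 and 0.10, 0.04 and 0.24 for numbers 1 to 3 in WSU-DLCL2, the last the highest of the 9 pairs. They were taken to share only a number. With a replicate block, 18 members were up and 13 down in Karpas-422 (4346 genes up, 3904 down), SRRM2, HNRNPA1 and HNRNPD being no longer called, and 0 members and 0 genes were called in the clones; not every library correlated best with its own number.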
